A study of Mus musculus with 2 samples.

Results

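The cells described are the TripleTg epithelial cells with a high level of seminal vesicle secretory transcripts, called here Svs-high cells. A cell belonged when it had at least 1 UMI of the epithelial marker Epcam, 0 UMIs of the leukocyte marker Ptprc, and at least 500 UMIs of Svs2, Svs4 and Svs5 together per 10000 UMIs of the cell. A UMI (unique molecular identifier) stands for 1 captured RNA molecule. The rule found 608 cells among 7687 Epcam-positive, Ptprc-negative cells of the TripleTg library, a share of 7.91% (95% exact binomial interval 7.32% to 8.54%), and left 7079 other epithelial cells. The TripleTg library held 9492 cells and both libraries 20090 kept cells. A proposed name for these cells was seminal vesicle-type epithelium, marked by Svs2, Svs4, Svs5 and Sva. The fourth of these genes went against that name in most of the cells, so they are named here by their rule.

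Single-cell RNA-seq was made from dissociated prostate tumour tissue of 2 mouse genotypes, with 1 library each. DoubleTg mice carried hHGFtg, a human HGF transgene expressed in the whole body, the H11hMET allele, from which a CAG promoter drives a human MET transgene (hMETtg) once Cre has removed a stop cassette, and PBCre4, a Cre driven by a probasin promoter that is active in prostate epithelium. TripleTg mice carried all of these and in addition 1 Ctnnb1L(Ex3) allele, from which the same Cre removes exon 3 and leaves a stabilised β-catenin. The labels call the DoubleTg tissue prostatic adenocarcinoma and the TripleTg tissue prostatic carcinoma, and the age of the animals was not given in the sources used here. With 1 library per genotype no difference has a replicate check, no test was run, and all intervals cover counting error only.

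The seminal vesicle is an accessory gland that grows from the Wolffian duct, whereas the prostate grows from the urogenital sinus. Under androgen its epithelium makes very large amounts of a few secreted proteins. The Svs proteins enter the seminal fluid, where Svs2 is a main substrate of the copulatory plug, and Sva, the seminal vesicle autoantigen, binds to sperm.

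The genes that chose the cells lie close together. On GRCm38 (GENCODE mouse release 21), Svs2 spans chr2:164235929-164238466, Svs4 chr2:164275952-164278459 and Svs5 chr2:164332740-164334396. Between Svs4 and Svs5 lies Svs6, at chr2:164316751-164318453, whereas Sva lies at chr6:42038394-42042851. The 250 bases before the RefSeq start site on GRCm38.p6 are shown for 4 genes, because Svs4 and Svs5 took most of the secretory UMIs, while Svs6 and Sva divided the cells. Capitals mark matches, on either strand, to TGTTCT (the half-site of steroid receptor elements), GATAA (the GATA factor core) and TATAAA (the TATA box).
Svs4: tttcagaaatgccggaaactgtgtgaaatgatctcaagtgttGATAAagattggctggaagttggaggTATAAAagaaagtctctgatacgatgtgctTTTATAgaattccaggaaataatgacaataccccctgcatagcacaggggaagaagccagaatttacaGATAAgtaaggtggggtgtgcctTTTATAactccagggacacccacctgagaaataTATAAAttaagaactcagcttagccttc
Svs5: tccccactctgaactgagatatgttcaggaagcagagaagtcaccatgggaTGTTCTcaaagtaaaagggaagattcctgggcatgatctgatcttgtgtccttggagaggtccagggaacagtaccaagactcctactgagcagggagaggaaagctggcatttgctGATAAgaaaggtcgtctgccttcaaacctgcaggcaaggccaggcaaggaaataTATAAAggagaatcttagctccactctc
Svs6: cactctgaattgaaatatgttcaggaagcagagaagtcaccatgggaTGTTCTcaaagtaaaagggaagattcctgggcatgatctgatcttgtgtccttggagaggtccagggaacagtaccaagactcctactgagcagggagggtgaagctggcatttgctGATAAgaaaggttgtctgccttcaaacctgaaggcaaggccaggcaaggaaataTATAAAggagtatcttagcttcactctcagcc
Sva: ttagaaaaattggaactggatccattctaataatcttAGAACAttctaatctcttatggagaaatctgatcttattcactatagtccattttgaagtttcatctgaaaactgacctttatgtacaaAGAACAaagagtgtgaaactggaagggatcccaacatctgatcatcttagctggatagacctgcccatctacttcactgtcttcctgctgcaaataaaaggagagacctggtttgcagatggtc
These windows are chr2:164278308-164278557 on the minus strand for Svs4, chr2:164332515-164332764 on the plus strand for Svs5, chr2:164316501-164316750 on the plus strand for Svs6 and chr6:42038144-42038393 on the plus strand for Sva. The Svs5 and Svs6 windows were nearly the same, with 237 of 254 aligned positions identical (93.3%), whereas Svs4 and Svs5 shared 57.6%. In Svs5 the matches began at -199 (TGTTCT), -82 (GATAA) and -28 (TATAAA) from the start site, and in Svs6 at -203, -86 and -32. Matches to 5 motifs were searched on both strands, and the share of all 32851 windows of this length that hold a match was 16.1% for TGTTCT, 22.6% for GATAA, 12.4% for TATAAA, 3.21% for CTTTGAT (a TCF/LEF core) and 0.00913% for the full palindrome of a steroid receptor element, which contains TGTTCT. No window of Svs4, Svs5, Svs6 or Sva held the last 2. A match is a description of letters and not a site. Shared sequence was searched only among the transcripts of the secretory list described below and of some other genes named in this report. Among these, no stretch of 25 bases in the last 400 bases of Svs4, Svs5, Svs6 or Sva was shared with another gene. Svs3a shared 15.6% of its stretches with Svs3b, so that their reads may be divided between them. All other transcripts were left out of this search.

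The level that chose the cells is given as a description. The highest cells outside the rule had 498.3, 493.6 and 490.3 UMIs of Svs2, Svs4 and Svs5 per 10000, and the lowest inside had 503.4, 506.1 and 519.3. The median was 3117 inside and 12.8 in the other epithelial cells. Summed over cells, the level was 4098 per 10000 in the Svs-high cells, 14.4 in the other epithelial cells and 25.2 in the 230 Ptprc-positive, Epcam-negative cells of the same library, which should not make these transcripts. The other epithelial cells therefore lay below the level in leukocytes. In all, 691 TripleTg cells were over the level, of which 40 had no Epcam UMI and 44 had a Ptprc UMI.

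**Figure D1:**
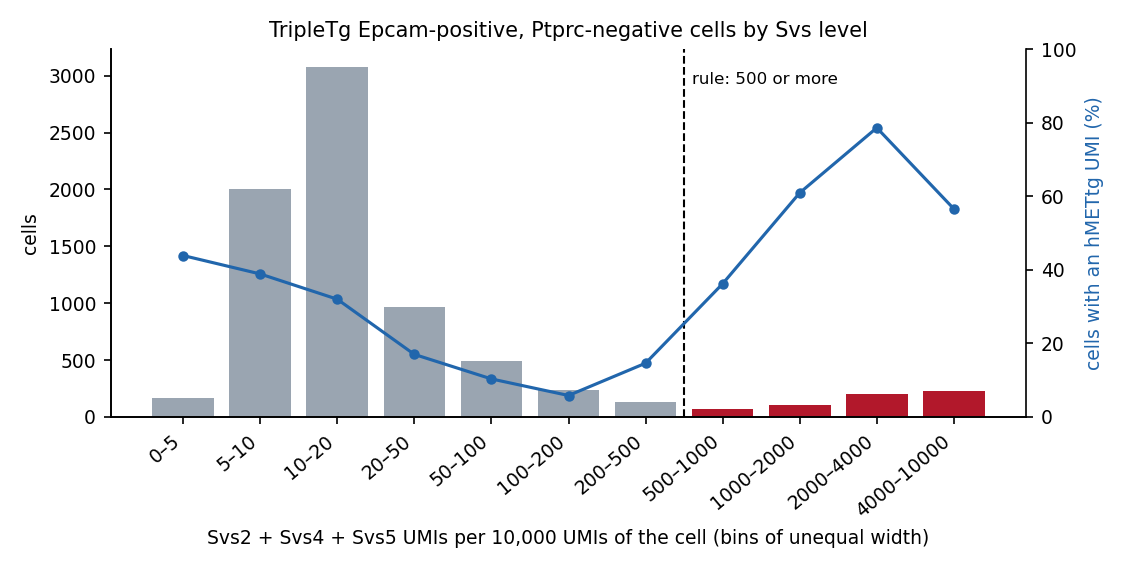
Number of TripleTg Epcam-positive, Ptprc-negative cells (bars, left axis) and percentage of cells with an hMETtg UMI (points, right axis) by UMIs of Svs2, Svs4 and Svs5 per 10000, in bins of unequal width, with the rule at 500 as a dashed line. The largest bin, 10 to 20 per 10000, held 3079 cells.

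The Svs-high cells were deep. Their median was 37008 UMIs (502 to 176910) and 3587.5 genes, beside 21881 UMIs and 3806 genes in the other epithelial cells, and 103 of the 608 had under 5000 UMIs. Their median mitochondrial share was 1.21%, beside 3.38%. Of 30 cell barcodes found in both libraries, 3 belonged to Svs-high cells, and in none was the DoubleTg cell Svs-high too. The doublet caller marked 0 of the TripleTg cells and so gave no information there. The median doublet score was 0.0386 in the Svs-high cells and 0.0443 in the others, and 70 of the Svs-high cells (11.5%) and 286 of the other epithelial cells (4.04%) were among the 5% of the library with the highest scores.

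The 11 genes of a seminal vesicle secretory list (Svs1 to Svs6 with Svs3a and Svs3b, Pate4, Sva, Ceacam10 and Spinkl) took 45.9% of all UMIs of the Svs-high cells and 0.164% of those of the other epithelial cells. Svs4 and Svs5 dominated. Svs4 had 19.4% of the UMIs and a range over cells of 1.85% to 38.8% around a median of 17.2%. Svs5 had 18.3%, with a range of 0.482% to 43.2% around a median of 12.2%. Both genes were thus read in every Svs-high cell.

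The other secretory genes followed a different course. Svs2 had 3.34% of the UMIs, with a median of 1.31% over cells. Pate4, a small caltrin-like protein, had 1.63%. Svs6 had 1.42% of the summed UMIs but a median of only 0.0678% over cells, and Sva had 0.35% but a median of 0. Sva was thus carried by a minority of the cells. It had a UMI in 32.7% of the Svs-high cells (29.0% to 36.6%), beside 17.6% of the other epithelial cells and 13.9% of the leukocytes. After each cell was thinned to 5000 UMIs these shares were 23.4%, 4.49% and 5.7%, over 505, 6130 and 193 cells.

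Sva, Svs1, Svs3a, Svs3b, Svs6, Ceacam10 and Spinkl were set together as 7 genes after their values had been seen, so what follows on them is a description. Svs1 is related to copper amine oxidases, Ceacam10 is a secreted immunoglobulin-family protein, and Spinkl is a Kazal-type inhibitor-like protein that binds sperm. Their share of the list's UMIs was under 1% in 385 Svs-high cells, from 1% to 5% in 88 and at least 5% in 135, with a highest value of 23.8%. In leukocytes, which should hold these transcripts only as free RNA, the 7 genes made up a median of 7.14% of the few list UMIs. Per 10000 UMIs of a cell, however, the 7 genes had a median of 1.82 in leukocytes and 0.871 in the other epithelial cells, beside 4.11 in the Svs-high cells with at least 2 hMETtg UMIs and 138.7 in those with 0. The names broad, for a share of at least 5%, and narrow, for one under 1%, are used below for these patterns.

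**Figure D2:**
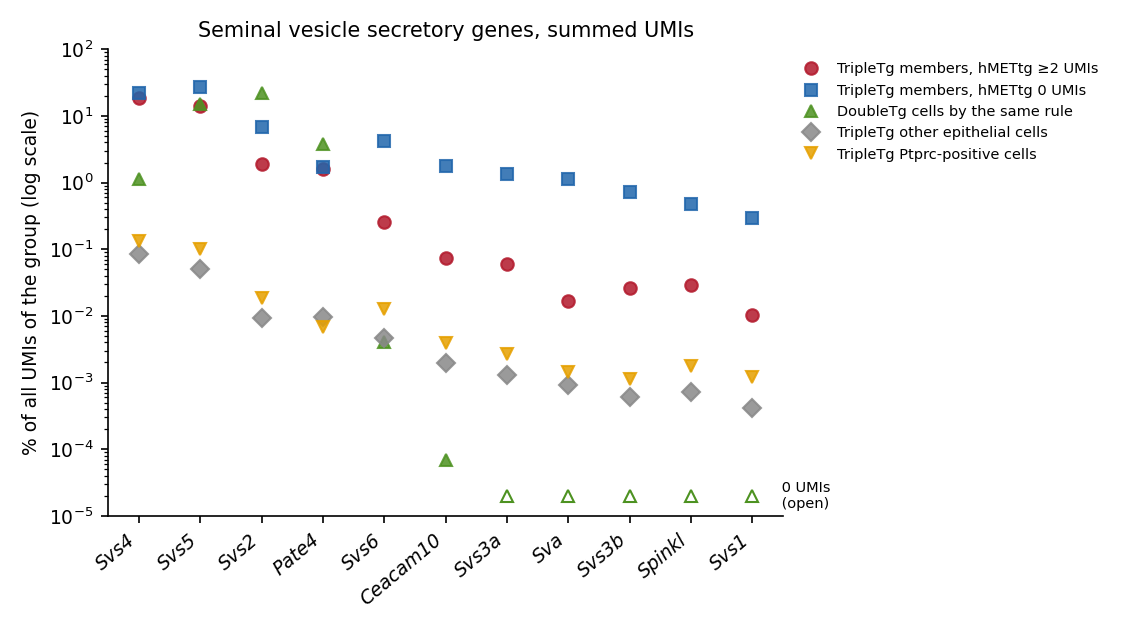
Percentage of all UMIs of a group (log axis) taken by each of the 11 secretory genes, for TripleTg Svs-high cells with at least 2 and with 0 hMETtg UMIs, DoubleTg cells chosen by the same rule, and other TripleTg epithelial cells. Open symbols stand for 0 UMIs, and the 3 selected groups lie close together for Svs5 and far apart for Sva, which is 0.0167%, 1.13% and 0.

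The human MET transgene was read in these cells to ask how the Cre-dependent allele goes with the secretory pattern. hMETtg had a UMI in 62.5% of the Svs-high cells (58.5% to 66.4%), in 29.5% of the other epithelial cells and in 3.04% of the leukocytes. Thinned to 5000 UMIs, the shares were 39.2% (34.9% to 43.6%), 10.6% and 1.04%. The Svs-high cells held 0 hMETtg UMIs in 228 cells, 1 UMI in 39 and at least 2 in 341, where the median was 7 and the highest 49. The summed level was 231.3 CPM (counts per 1000000 UMIs outside the secretory list) in the Svs-high cells and 26.9 CPM in the others. hHGFtg, which does not depend on Cre, was at 176.4 and 78.2 CPM. The groups by hMETtg differed in depth, with a median of 43873 UMIs at 2 or more and 13752.5 at 0, and 89 of the 228 cells without hMETtg had under 5000 UMIs.

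Cells with and without hMETtg showed different secretory patterns. Svs4 took 18.3% of the UMIs at 2 or more hMETtg UMIs and 21.95% at 0. As Svs4, Svs5 and Svs2 chose the cells, a high sum of these genes in both groups is fixed by the rule. Svs5 took 14.3% and 27.5%, and Svs2 1.92% and 6.7%. Svs6 took 0.256% and 4.15%, Svs3a 0.0608% and 1.36%, and Sva 0.0167% and 1.13%. A UMI of Sva was found in 62.6% of the thinned cells without hMETtg (54.0% to 70.6%) and in 6.83% of those with at least 2 (4.38% to 10.1%), beside 5.7% in leukocytes.

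Cell by cell, the 7-gene share had a median of 8.08% at 0 hMETtg UMIs, 0.347% at 1, 0.21% at 2 to 4, 0.107% at 5 to 9 and 0.11% at 10 or more. Among cells of at least 5000 UMIs, 96 of 139 without hMETtg were broad, 15 were between and 28 were narrow. With at least 2 hMETtg UMIs, 292 of 337 were narrow, 38 were between and 7 were broad. The narrow pattern was thus found with and without hMETtg reads, and the broad pattern was mostly in cells without them. In the 89 shallow cells without hMETtg, 26 were broad, 27 between and 36 narrow, and at that depth a cell without an hMETtg UMI may still carry the transgene.

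**Figure D3:**
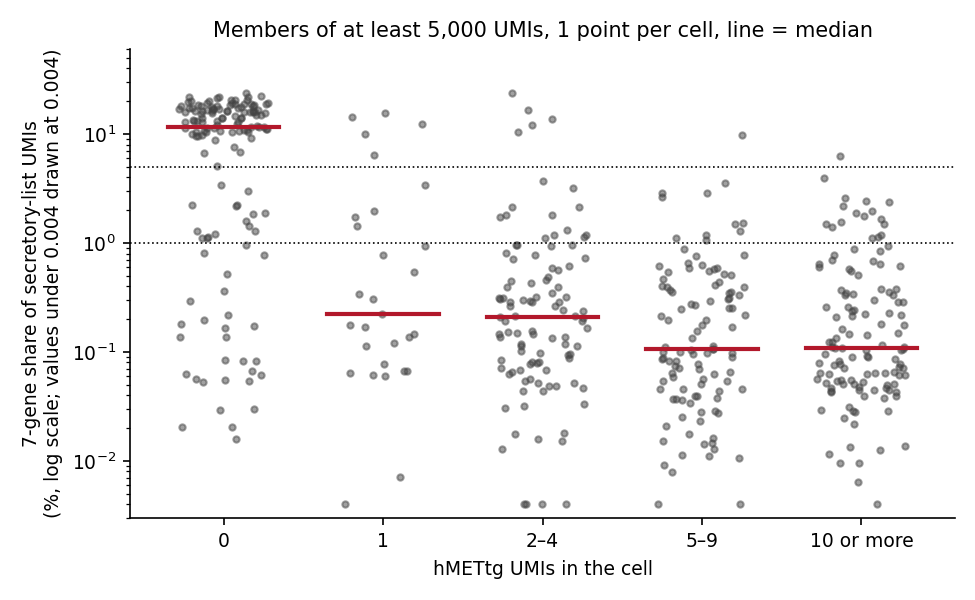
Share of secretory-list UMIs from the 7 genes (log axis, values under 0.004% drawn at 0.004%) by hMETtg UMIs in the cell, for Svs-high cells of at least 5000 UMIs, 1 point per cell, with the median as a line. Dotted lines mark 1% and 5%, and 96 of the 139 cells at 0 hMETtg lie above 5%.

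Against the other epithelial cells, 5302 genes outside the secretory list had at least 20 CPM in either group. Of these, 467 (8.81%) were at least 2-fold higher in the Svs-high cells and 591 (11.1%) at least 2-fold lower, and the median log2 ratio was -0.12. The CPM leave out the secretory UMIs. With them in the totals every ratio moves by -0.88, so that ratios between 0 and 0.88 become negative. A gene can pass this filter through 1 group alone, in which it is then the higher one, and it is said below how many called members of a list did so. As the cells were chosen by 3 of their own genes, these ratios describe them and support no separate claim.

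Spink1, a Kazal-type trypsin inhibitor, had the highest ratio and was at 2114 CPM beside 4.29 CPM (log2 ratio 8.95, interval 8.84 to 9.05). It was followed by A630095E13Rik at 9441 beside 26.2 CPM (8.49), Crisp1, a cysteine-rich secretory protein of the male tract, at 2415 beside 9.95 CPM (7.92), and Dnase2b, an acid nuclease, at 192.1 beside 0.909 CPM (7.72). The small proline-rich genes Sprr2f (7.03) and Sprr2d (6.82) were also among the 15 highest. The others were 9530003J23Rik (7.58), D730048I06Rik (7.01), Gm1673 (6.55), Smpx (6.15), Plac8 (5.92), Wfdc15b (5.67), Akap12 (5.56), Abhd11os (5.50) and the thiol oxidase Qsox1 (5.37). These genes did not lie in the same cells. In cells of at least 5000 UMIs, Spink1 was at 16830 CPM in the 96 broad cells without hMETtg and at 9.67 in the 292 narrow cells with it, while Crisp1 was at 12.3 and 2902 and Sprr2f at 27.2 and 3458.

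The lowest ratios were led by Tchh, a hair and epithelial filament protein, at 7.35 beside 128.8 CPM (-4.13, interval -4.43 to -3.85), and by Plb1 (-3.88). In the other epithelial cells, 30.2% of the Tchh UMIs were in 1 cell and 54.3% in 5 cells. All 4 alpha-defensin genes that reached 20 CPM were at least 2-fold lower, 1 of them (Defa5) with 20 CPM in the other cells alone. They encode small antimicrobial peptides that are best known from Paneth cells of the gut. Defa21 was at 61.1 beside 894.7 CPM (-3.87), Defa5 at -3.71, Defa22 at -3.58 and Defa20 at -3.40. Defa21 and Defa22 share over 86% of the 25-base stretches at their 3′ ends, so that their reads may be divided between them. The others of the 15 lowest were Gm15315, Gm15293, Cnfn, Gm21002, Gm10104, Crym, Gm15308, 2010109I03Rik and the iron exporter Slc40a1 (-3.25).

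Wnt target genes were low in the Svs-high cells. Of a list of 12, 8 reached 20 CPM, of which 6 were at least 2-fold lower and 0 higher, with a median log2 ratio of -1.75 (interval -1.999 to -1.5). Of the 6, however, 5 reached 20 CPM in the other cells alone, so that the filter favours this direction. Over all 12 genes, with no filter, the median was -1.84. Axin2, the feedback inhibitor most often read for β-catenin output, was at 17.7 CPM in the Svs-high cells and 82.4 in the others (-2.22), and Rnf43 (-1.97), Znrf3 (-1.86), Notum (-1.82), Tcf7 (-1.68) and Nkd1 (-1.48) were lower as well. Ccnd1, at 125.3 beside 66.0 CPM, and Myc, at 65.0 beside 55.6 CPM, were not lower. With secretory UMIs in the totals the log2 ratio of Ccnd1 went from 0.93 to 0.04 and that of Myc from 0.23 to -0.66. Ctnnb1 itself was at 128.3 beside 248.6 CPM (-0.95). In leukocytes Axin2 was at 13.8 CPM, near its level in the Svs-high cells, and the part of free RNA in the latter was not tested.

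The protein-folding machinery of the endoplasmic reticulum, which secretory cells use to load and fold their products, was higher. On CPM that leave out secretory UMIs, 8 of 22 genes were at least 2-fold higher and 0 lower, with a median log2 ratio of 0.72, whereas with all UMIs in the totals the median was -0.17. Sdf2l1 (2.39), Herpud1, which acts in the removal of misfolded proteins (1.71), Ssr4 of the translocon-associated complex (1.64), Sec61b of the translocon (1.53), Pdia6 (1.47) and Manf (1.43) led the list. The major chaperone Hspa5 was at 2041 beside 1542 CPM (0.40), a ratio that is negative with all UMIs in the totals. A short list of amino acid and endoplasmic reticulum stress genes was higher on both scales, with 4 of 6 at least 2-fold higher and a median of 2.18. All 6 listed genes passed the filter, 3 of the 4 through the Svs-high cells alone. Chac1, which breaks down glutathione, was at 118.5 beside 4.95 CPM (4.58), Trib3 at 38.2 beside 3.79 CPM (3.33) and the asparagine synthetase gene Asns at 170 beside 26.4 CPM (2.69). Ddit3 was at 23.9 beside 23.4 CPM, and lower with all UMIs in the totals.

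Genes of class I antigen presentation were higher. B2m, the light chain of class I molecules, was at 5833 beside 381.6 CPM (3.93), and H2-K1 (2.01), H2-D1 (1.08), Tap1 (2.18) and the immunoproteasome genes Psmb8 (2.27) and Psmb9 (2.23) were at least 2-fold higher, 6 of the 10 genes listed. All 10 passed the filter, Tap1 and Psmb9 through the Svs-high cells alone. The class II genes H2-Aa, H2-Ab1 and H2-Eb1 and the invariant chain gene Cd74 lay between -0.12 and 0.12. Of 7 interferon-stimulated genes, 6 were at least 2-fold higher, with a median of 1.91. Of these, 3 passed the filter through the Svs-high cells alone, and over all 9 listed genes the median was 1.89. A few cells carried part of this. Without the 5 Svs-high cells with the most UMIs of the list the median was 0.80 (-0.09 with all UMIs in the totals), Isg15 was at 73.1 beside 49.0 CPM (0.58, and -0.31 with all UMIs) and Rsad2 at 22.6 beside 26.0 CPM, whereas Bst2 was still at 195.9 beside 48.0 CPM and Irf7 at 57.6 beside 14.2 CPM. In the 228 Svs-high cells without hMETtg the median was -0.38 against the same other cells.

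Of 8 epithelial genes, 7 were above the level of the other cells on this scale and Epcam was below it. Cldn3 (1.499), Cldn4 (1.17) and Cldn7 (1.04), which seal tight junctions, were at least 2-fold higher, Krt8 was at 8615 beside 4636 CPM, and Epcam was at 1468 beside 1689 CPM. The list's median was 0.85, and with all UMIs in the totals it was -0.03. Markers of other epithelial types were low. All 5 basal genes that reached 20 CPM were at least 2-fold lower (median -1.77), among them Krt5 at 53.0 beside 176.1 CPM. Of these, 1 had 20 CPM in the other cells alone. The proximal luminal genes Ly6d (-2.60), Psca (-2.62), Krt4 (-2.69) and Wfdc2 (-1.98) were at least 2-fold lower as well. Of these 4, 2 had 20 CPM in the other cells alone. Of 9 genes of HGF and MET signalling, 3 were at least 2-fold higher, namely Plau (1.86), Met (1.54) and Plaur (1.23), with a median of 0.85 that becomes -0.04 with all UMIs in the totals. In the cells without hMETtg the ratio of Met was -0.14. Of 5 mucosal defence genes that reached 20 CPM, with a median of -0.95, the antimicrobial genes Ltf (3.09) and Lcn2 (2.80) were at least 2-fold higher, whereas Wfdc2 and Pigr (-2.52), which carries antibodies across epithelia, were at least 2-fold lower. Of 7 inflammatory genes that reached 20 CPM, 5 were at least 2-fold lower and 1 was at least 2-fold higher. Of the 5, 3 had 20 CPM in the other cells alone. The chemokines Cxcl5 (-3.68) and Cxcl2 (-1.66) were among the lower ones.

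Transcription factors of the Wolffian duct were at low counts. Pax2 was at 6.62 CPM (91 UMIs) beside 0.0954 CPM and Emx2 at 12.4 CPM (171 UMIs) beside 0.314 CPM, both under the 20 CPM needed to enter the counts. Gata3 (-2.15), Hoxa9 (-2.50) and Hoxa10 (-2.92) were at least 2-fold lower, 2 of them with 20 CPM in the other cells alone. The prostate factor Hoxb13 was at 2.69 beside 15.8 CPM and Foxa1 at 62.6 beside 63.0 CPM. Pax2 and Emx2 were found in both patterns, at 4.54 and 3.89 CPM in broad cells without hMETtg and 8.26 and 14.1 in narrow cells with it.

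**Figure D4:**
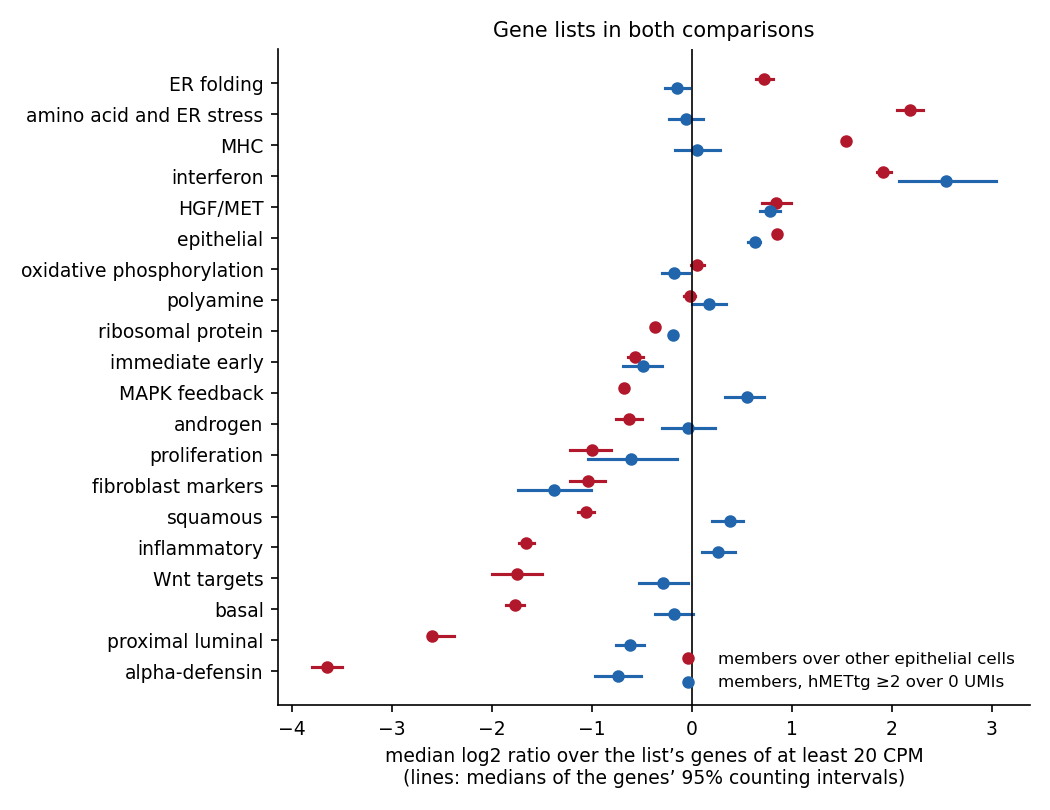
Median log2 ratio over the genes of each list that reached 20 CPM, for Svs-high over other epithelial cells and, within the Svs-high cells, for at least 2 over 0 hMETtg UMIs; lines join the medians of the genes' lower and upper counting limits. Wnt targets lie at -1.75 and the interferon list at 1.91 in the first comparison.

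Markers of other cell types were not at 0. The 7 immune markers summed to 192.6 CPM beside 118.0 in the other epithelial cells. Of them, Ptprc was at 0 by the rule and Lyz2, the lysozyme gene, was at 168.7 beside 67.2 CPM, whereas Tyrobp was at 4.51, C1qa at 6.33 and Cd3e at 0.509 CPM. The 5 fibroblast markers summed to 124.5 CPM beside 372.5, the 4 endothelial markers to 8.15 beside 29.5 and the 5 smooth muscle markers to 6.18 beside 28.1. The part of free RNA from these cells in the results was not tested.

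Within the Svs-high cells, at least 2 hMETtg UMIs was compared with 0 over 4922 genes. Of these, 202 (4.1%) were at least 2-fold higher and 197 (4%) at least 2-fold lower, with a median of 0.05. With all UMIs in the totals each ratio moves by 0.97. Spink1 had the lowest ratio and was at 214.4 CPM with hMETtg and 10820 CPM without (-5.66, interval -5.72 to -5.60), and Orm3, an acute-phase glycoprotein, at 6.57 and 318.2 CPM (-5.60). Spink11 (-5.07), the defensin gene Defb42 (-3.41), Dnase2b (-3.20), Gm1673 (-3.13), Bglap3 (-2.86), Shisa4 (-2.58), Serpina3g (-2.54), Cxcl14 (-2.51) and Derl3, of endoplasmic reticulum degradation (-2.44), followed. Some of these rested on a few of the cells without hMETtg. Fabp4 was at -3.75, with 77.7% of its UMIs in 1 cell, and 5 cells held 81.7% of the Cxcl14 UMIs and 52.6% of the Bglap3 UMIs. Of 8 immediate-early genes, 0 were at least 2-fold higher and 3 lower, namely Atf3, at 279.3 and 1231 CPM (-2.14), Ier2 (-1.16) and Egr1 (-1.13, and -0.15 with all UMIs in the totals), and the list's median was -0.49.

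Among the highest, hMETtg was fixed by the rule. Sprr2d was at 80.3 CPM with hMETtg and 5.39 without (3.90, interval 3.12 to 4.81). The surfactant genes Sftpc (3.76), Sftpa1 (3.56) and Sftpb (3.42) and the metallothionein gene Mt4 (3.75) rested on a few cells. Of the Sftpc UMIs, 53.5% were in 1 cell and 96.6% in 5 cells, and in cells of 10000 to 40000 UMIs its ratio was -0.72. Most of the remaining names were interferon-stimulated genes, namely Rsad2 (2.87), Ifit3 (2.55), Ifi27l2b (2.54), Isg15 (2.54) and Ifit1 (2.38), with Glipr1 at 2.75.

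Of 7 measured interferon genes, 6 were at least 2-fold higher with hMETtg, with a median of 2.54 (interval 2.07 to 3.04). Of the 6, 4 reached 20 CPM in the cells with hMETtg alone, and over all 9 listed genes the median was 2.38. The 5 highest cells held 41.5% of the 8973 UMIs of the list. Without them the median of the 7 genes was 1.06, or 1.18 over the 6 that then reached 20 CPM, Bst2 was at 223.3 and 90.8 CPM, Ifi44 at 29.5 and 5.39 CPM and Isg15 at 78.5 and 37.7 CPM. A UMI of the list was present in 326 of 341 cells with hMETtg (median 7) and in 140 of 228 without (median 1), where the cells were shallower. In the other epithelial cells the same comparison, 1040 against 4993 cells, gave Isg15 at 28.8 and 61.5 CPM and Bst2 at 35.1 and 56.5 CPM, which is the opposite order.

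Of 9 genes of HGF and MET signalling, 4 were at least 2-fold higher with hMETtg and 0 lower. Met, the mouse receptor gene (chr6:17463800-17573980), was at 221.3 CPM with hMETtg and 58.9 CPM without (1.91, interval 1.66 to 2.16). It had a UMI in 330 of 341 cells with hMETtg, and after thinning in 53.7% of them beside 13.7% of those without. No single cell carried it, as the top 5 cells held 5.26% of its UMIs. Plau, the urokinase that can activate pro-HGF, was at 185.6 and 75.9 CPM (1.29), Hpn, the protease hepsin, at 26.2 and 8.71 CPM (1.59), and St14, the protease matriptase, at 196.2 and 90.02 CPM (1.12). The list's median was 0.78. All 9 genes passed the filter, Hpn through the cells with hMETtg alone. After thinning to 5000 UMIs, which leaves few UMIs per gene, 7.22% of all genes that reached 20 CPM were at least 2-fold higher and 8.06% lower. Then 2 of the 9 genes were at least 2-fold higher, Met (1.66) and St14 (1.34), and 1 was lower, Tmprss2 (-1.18), while Plau was at 0.97 and Hpn at 0.84 (-0.52 to 2.55). The inhibitors Spint1 (-0.12) and Spint2 (0.07) and Hgf (0.83) were below 2-fold after thinning. They were also below it without thinning, at 0.27, 0.15 and -0.09. hHGFtg was at 177.2 and 164.3 CPM. Met and hMETtg are homologous, and how reads that fit both were divided was not given in the sources used here. In the other epithelial cells the ratio of Met was 0.45 (0.39 to 0.52).

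Of 22 endoplasmic reticulum folding genes, 0 were at least 2-fold higher and 1 lower, Herpud1 (-1.06), with a median of -0.15 that becomes 0.82 with all UMIs in the totals. The stress list had 0 of 6 past 2-fold in either direction. Of the Wnt list only 3 genes reached 20 CPM, of which Nkd1 was at -1.64, with 20 CPM in the cells without hMETtg alone. Axin2 was at 16.8 and 18.3 CPM. All 6 measured MAPK feedback genes were above 0, with Phlda1 at 475.3 and 227.3 CPM (1.06) the one past 2-fold, whereas after thinning 6 of 8 were above 0. Psmb9 (1.78), Psmb8 (1.40) and H2-K1 (1.17) were higher, whereas H2-Aa (-1.06) and H2-Eb1 (-1.19) were lower. Of these, Psmb9 reached 20 CPM in the cells with hMETtg alone and H2-Eb1 in the cells without it alone. After thinning, 1 of the 10 genes of this list was at least 2-fold higher and 3 lower, beside the 7.22% and 8.06% of all genes. Ltf was at 4858 and 1566 CPM (1.63) and Lcn2 at 4478 and 2199 CPM (1.03), whereas the median of the 5 mucosal defence genes was -0.15. The 5 fibroblast markers summed to 106.4 CPM with hMETtg and 207.8 without, with a median of -1.38 over the 4 that reached 20 CPM. Of these 4, 3 were at least 2-fold lower, all 3 with 20 CPM in the cells without hMETtg alone. The 7 immune markers summed to 210.6 and 135.6 CPM. The part of both marker sets in these differences was not tested.

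The 2 readings, hMETtg and the secretory pattern, were then crossed in cells of at least 5000 UMIs. This split used values already seen, so it is a description. Several of the genes named above went with the pattern. Ltf was at 100.5 CPM in the 96 broad cells without hMETtg, at 5200 in the 28 narrow cells without it and at 5358 in the 292 narrow cells with it. Crisp1 was at 12.3, 3867 and 2902, Krt19 at 1309, 7622 and 5771, and Dnase2b at 1083, 62.5 and 70.4. In all of these the narrow cells without hMETtg lay near the narrow cells with it. The 7 broad cells with hMETtg held Spink1 at 6719 and Ltf at 306.0, nearer to the broad cells.

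Met, Plau and the interferon list also differed with hMETtg inside the narrow pattern. Met was at 42.1 CPM in the broad cells without hMETtg (interval 32.5 to 53.7), at 81.5 in narrow cells without it (59.9 to 108.4) and at 219.7 in narrow cells with it (210.2 to 229.4). The 7 broad cells with hMETtg held Met at 169.5 (121.7 to 230.0). Plau was at 57.0, 119.7 and 187.1 in the first 3 groups, but at 28.9 (11.6 to 59.6) in the 7 broad cells with hMETtg. The interferon list was at 179.6, 355.6 and 928.2, and without the 5 highest cells the last value was 537.3 (522.3 to 552.7). Axin2 was at 14.9, 22.6 and 16.4, with intervals that overlap.

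**Figure D5:**
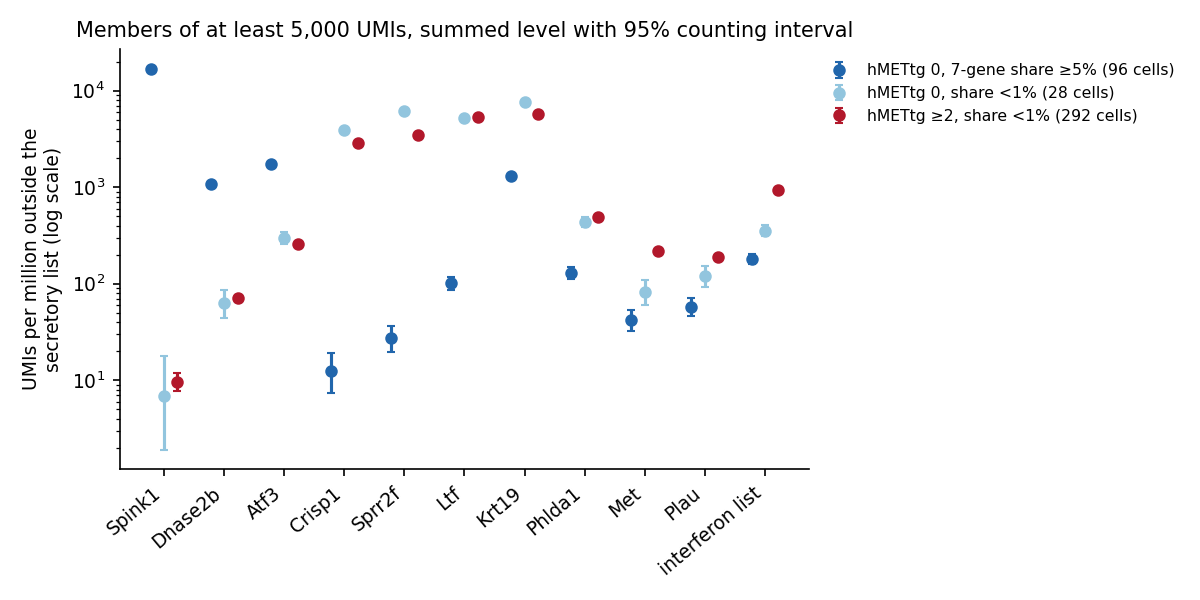
Summed level in CPM (log axis), with 95% counting intervals, for Svs-high cells of at least 5000 UMIs split by hMETtg and by the 7-gene share. For Spink1, Crisp1, Sprr2f, Ltf and Krt19 the 28 narrow cells without hMETtg lie near the 292 narrow cells with it, and for Met they lie between the other groups.

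The same rule found 90 cells in the DoubleTg library, 1.06% of its 8458 epithelial cells (0.857% to 1.31%). Genotype and library cannot be told apart, and which parts of the gland each library held was not given in the sources used here. The TripleTg cells differed from the DoubleTg ones in the make-up of the list. In DoubleTg, Svs2 took 22.1% of the UMIs, Svs5 14.9%, Pate4 3.76% and Svs4 1.13%, whereas in TripleTg Svs2 took 3.34% and Svs4 19.4%. Sva, Svs1, Svs3a, Svs3b and Spinkl had 0 UMIs in the DoubleTg cells, and the 7-gene share was under 1% in all 90, with a highest value of 0.167%. In the 292 TripleTg narrow cells with hMETtg, Svs4 took 17.6% and Svs2 1.46% of the UMIs.

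Over 5434 genes, 373 (6.86%) were at least 2-fold higher in the TripleTg Svs-high cells and 671 (12.3%) at least 2-fold lower, with a median of -0.23. Sprr2a3, at 1456 beside 1.56 CPM (9.87), and A630095E13Rik, at 9441 beside 17.2 CPM (9.10), were among the highest, as were Sprr2f (7.30), the interferon gene Ifi27l2a (7.23) and the haemoglobin genes Hbb-bs and Hba-a1, of which 79.6% of the Hbb-bs UMIs lay in 5 cells. Dnase2b and Sftpc had 0 UMIs in DoubleTg, which gives log2 ratios of at least 7.36 and 9.41 against a floor of 3 UMIs over the group. Of the TripleTg Sftpc UMIs, 94.9% lay in 5 cells. Prostate secretory genes were among the 8 lowest. The spermine-binding protein gene Sbp was at 5085 CPM in DoubleTg and had 1 UMI in the TripleTg cells, Msmb was at 542.7 CPM beside 0 UMIs and Pbsn, the gene of probasin, at 107.3 beside 0.655 CPM (-7.36). Sbpl, 9530002B09Rik, the proton pump subunit gene Atp6v1g3, the transcription factor gene Foxi1 and Defb50 completed the 8 lowest. Several of these levels rested on a few DoubleTg cells. There, 1 cell held 81.9% of the Sbp UMIs, 1 held 69.2% of those of Sbpl and 1 held 68.1% of those of 9530002B09Rik. For Msmb 5 cells held 87.35% of the UMIs, and for Defb50 88.95%. In DoubleTg leukocytes, Sbp was at 2163 CPM, Msmb at 217.1 CPM and Pbsn at 94.9 CPM, so that Pbsn in the DoubleTg cells was near the leukocyte level, and the part of free RNA in the other 2 was not tested. Of 6 stress genes, 5 were at least 2-fold lower in TripleTg, with Chac1 at 118.5 beside 576.7 CPM. The immune markers summed to 192.6 beside 4.68 CPM, with Lyz2 at 168.7 beside 1.17, and the fibroblast markers to 124.5 beside 23.4 CPM, and their part in these differences was not tested. Of 8 interferon genes, 6 were at least 2-fold higher in TripleTg, 3 of them with 20 CPM in TripleTg alone, with a median of 1.86 that becomes -0.96 between the cells with 0 hMETtg UMIs. Without the 5 TripleTg cells with the most UMIs of the list, Rsad2 was at -1.10, Isg15 at 0.54 and Ifit1 at 0.86. Ifit3 (1.85), Ifi44 (1.76), Bst2 (1.72) and Irf7 (1.505) were then still at least 2-fold higher. hHGFtg was at 176.4 beside 382.0 CPM, with a log2 ratio that turns to 0.45 between those cells. The DoubleTg level of hHGFtg rested on a few cells, as 1 cell held 49.6% of its UMIs and 5 cells held 86.2%. Of 9 HGF and MET genes, 1 was at least 2-fold higher, Met at 188.8 beside 82.7 CPM (1.19), and 1 lower, Plau at 164.0 beside 388.6 CPM, with a median of -0.17. Between the cells with 0 hMETtg UMIs, Met was at 0.42 (-0.01 to 0.87). Of the Wnt list, 3 genes reached 20 CPM, with a median of -0.27, and of these Ccnd1 was at least 2-fold lower, at 125.3 beside 354.7 CPM. Axin2, which did not reach 20 CPM, was at 17.7 beside 6.24 CPM.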

How the data were processed

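Single-cell RNA was measured in 1 DoubleTg and 1 TripleTg library (10x 3′ v3). The deposited files give unnormalised UMI counts for each gene in each cell, which the authors made with Cell Ranger (6.0.2 per the submitters' processing notes) from reads aligned to mm10 with both transgenes added. The study's limits (over 200 and under 7000 genes, under 15% mitochondrial UMIs) were applied to both libraries. They changed nothing in TripleTg and left 10598 cells in DoubleTg, which is more than the number of DoubleTg cells that the study states.

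The rule and thresholds stand in the report. UMIs were summed over cells and divided by the total outside the 11 secretory genes (CPM). Log2 ratios have conditional binomial intervals and shares exact binomial ones, at 95%. Sums under 3 UMIs were set to 3. No test was run, as each group is 1 library. Named genes are the 15, 12 or 8 highest and lowest ratios of a comparison among genes of at least 50 CPM, and members of the lists described. The cells and lists were chosen with earlier results of these data known. Python 3.11.15, numpy 2.4.6, pandas 2.3.3, scipy 1.17.1, scanpy 1.11.5 (Scrublet) and edgeR 4.0.16 (TMM factors only) were used, and the steps were tested on simulated data. Alternatives were other cuts, scalings, filters, thinning, depth windows and cells left out. Nothing was taken from the study's own integration, clusters or cell-level tests. Free RNA was not removed. A few list members are not reported here.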

Additional observations from a re-analysis of the deposited data

How the results depend on the processing

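No paired analysis was possible because each genotype has 1 library and no test was run. The share of Svs-high cells with hMETtg, 62.5%, was 55.9% at a cut of 250 per 10000, 56.1% at 2 or more hMETtg UMIs, 72.5% in cells of at least 5000 UMIs and 39.2% after thinning. Against the other epithelial cells, 135 genes were 2-fold higher and 2657 lower with all UMIs in the totals, and 168 and 137 at a filter of 100 CPM. The Wnt median of -1.75 was -2.63 with all UMIs, -1.44 after thinning, -2.05 without the 5% highest doublet scores and -1.19 in cells without hMETtg. The folding median was -0.15 with all UMIs and 0.84 with TMM. Here the filter of 20 CPM is applied after the rescaling, so the medians with all UMIs are over fewer genes than those in the report. With 0 hMETtg UMIs only, the interferon median was -0.38, Met -0.14 and hMETtg -4.44, the last of which is fixed by the choice of cells.

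Within the Svs-high cells, the counts higher and lower were 1920 and 14 with all UMIs, 384 and 429 after thinning, 77 and 50 at 100 CPM and 131 and 102 in cells of 10000 to 40000 UMIs, and 421 were lower with cells weighted equally. In that window Sftpc was at -0.72, Sftpa1 -0.66, Sftpb -0.83 and Pate4 0.40. The Wnt median of -0.29 was -0.58 at the cut of 250 and -0.64 thinned. The folding median was 0.88 with all UMIs, 0.09 with equal weights, 0.07 thinned and -0.0 in the window. Against DoubleTg, 227 genes were higher with all UMIs, 357 lower with TMM, 1083 lower with equal weights and 1064 thinned, and 126 and 145 passed at 100 CPM. With 0 hMETtg UMIs the interferon median was -0.96 and hHGFtg 0.45. Thinned counts rest on few UMIs per gene. Apart from what the alternatives' construction shows, the cause of these moves was not tested. Over all results and alternatives, 827 values stayed within the set limits, 613 moved and 9 reversed, that of hMETtg among the 9. TMM moved all ratios by 0.12, 0.08 and 0.31 in the 3 comparisons. Alternatives on doublet scores, hMETtg subsets, minimum depths and the 5 cells highest in interferon genes were chosen after seeing the data. Scrublet calls gave no separate value in TripleTg, since it called 0 cells. With 1 library per genotype, spread between animals is not measured.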
